A study of Mus musculus with 12 samples.

Results

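Zp1, Zp2, Zp3, Astl, Cd9, Izumo1r and Oosp1 are genes of the zona pellucida, the coat around the oocyte, and of the way the egg receives sperm. They were chosen by name and matched by Ensembl identifier, and they make up 7 of the 55573 genes counted. Each of the 7 had counts in all 12 libraries and passed the filter on low counts in every fit.

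The growing oocyte secretes its own zona pellucida. In the mouse, ZP2 and ZP3 form the filaments of the coat and ZP1 links the filaments to each other. A sperm that has bound to the zona and crossed it meets the egg membrane, where Juno, the product of Izumo1r, binds IZUMO1 on the sperm, and where the tetraspanin CD9 is needed for fusion. Astl encodes ovastacin, a protease stored in the cortical granules, which is released after fertilization and cleaves ZP2, so that no further sperm bind. Oosp1 encodes a small protein that the oocyte secretes.

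Poly(A) RNA was sequenced from GV oocytes, which are fully grown and still hold an intact nuclear envelope (the germinal vesicle). The oocytes came from a B6D2F1 female mouse 12 weeks old and were collected in M2 medium with milrinone, which keeps them at that stage. Amplification and input were varied to examine ERCC normalization, in which a fixed amount of synthetic RNA molecules (ERCC) added to each sample sets the scale. No group received any other treatment. There were 6 whole oocytes, 2 each amplified for 10, 14 and 18 cycles, and 2 libraries each from 1/2, 1/4 and 1/8 of an oocyte, made by dilution of the lysates of 2 further oocytes. The fractions were amplified for 18 cycles according to the methods, and the labels do not give their cycle number. Replicates within the whole-oocyte groups are different oocytes. The methods can be read as 1 library of each fraction from each of the 2 lysates, but which library came from which oocyte was not given.

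Whole oocytes amplified for 10 cycles gave 11597144 and 9189672 counts on genes. Those amplified for 14 cycles gave 12349577 and 13806199, and those amplified for 18 cycles 3017069 and 1706478. The fractions had 4024670 and 3598549 counts for 1/2, 4027907 and 5049518 for 1/4, and 11404262 and 1702062 for 1/8 of an oocyte. Whole oocytes at 18 cycles were therefore sequenced less deeply than those at 10 and 14 cycles, and cycle number, depth, oocyte and preparation cannot be told apart in that comparison. Levels are given as CPM, with the counts on all genes of a library as the total. The lowest count of any of the 7 genes was 35, for Cd9 in whole oocyte 18 cycles replicate 2, where the 95% Wilson interval of its level ran from 14.8 to 28.5 CPM. Such intervals cover counting error only, because amplified reads are not independent molecules.

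The libraries carried the RNA of oocytes with little from other cells. All 9 oocyte markers searched had counts in all 12 libraries and together took 0.933% to 2.09% of the gene counts, among them Gdf9, a growth factor that the oocyte secretes, with the highest median over the 12 libraries but not the highest level in each. The 12 granulosa and cumulus genes, which mark the cells that surround the oocyte in the follicle, summed to 28.7 to 164 CPM. Their most abundant gene, Nr5a2, had a median of 26.8 CPM, and Tnfaip6 had no count in any library. Inha and Gja1 were highest in whole oocyte 10 cycles replicate 1, at 34.15 and 32.51 CPM. Next came whole oocyte 14 cycles replicate 2, at 31.94 and 18.18 CPM, whereas 10 cycles replicate 2 had 0.327 and 0 CPM. Of the 12 sperm and spermatid genes, Izumo1, Adam2 and Acr had no count in any library, and the list summed to 1.17 to 14.2 CPM. The 6 blood and immune genes summed to 0 to 5.35 CPM, and Hba-a1 had no count. The highest sum of the blood genes came from whole oocyte 10 cycles replicate 1, and replicate 2 of that group had 0 counts on them.

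Together the 7 genes took 1.07% and 0.887% of the gene counts at 10 cycles and 1.03% and 1.13% at 14 cycles. In whole oocytes at 18 cycles they took 0.364% and 0.243%, and in 1/2 of an oocyte 0.364% and 0.356%. The share was 0.654% and 0.721% in 1/4, and 0.895% and 0.785% in 1/8 of an oocyte. It was thus lowest in the whole oocytes at 18 cycles and the 1/2 fractions, and the 1/8 fractions came close to the whole oocytes at 10 cycles.

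The zona genes supplied most of that share. Zp2, which encodes the zona protein that sperm bind and ovastacin cleaves (ENSMUSG00000030911), lies at chr7:120126772-120145291 on the minus strand (GRCm38). It measured 4328 and 3306 CPM at 10 cycles, 3696 and 4129 at 14 cycles, but 1122 and 584 at 18 cycles. The fractions gave 644 and 965 CPM for 1/2, 2002 and 2150 for 1/4, and 2558 and 2451 for 1/8. All 4 libraries at 10 and 14 cycles lay above all 8 libraries at 18 cycles, and the whole oocytes at 18 cycles overlapped with the 1/2 fractions.

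Zp3, the partner of Zp2 in the filaments (ENSMUSG00000004948), lies at chr5:135980099-135988624 on the plus strand. It measured 2460 and 1948 CPM at 10 cycles, 2495 and 2811 at 14 cycles, but 1308 and 951 at 18 cycles. In the fractions it measured 1667 and 1302 CPM for 1/2, 2467 and 2784 for 1/4, and 2590 and 1687 for 1/8. Both the 1/4 and the 1/8 fractions lay in the range of the whole oocytes at 10 and 14 cycles, apart from 1/8 replicate 2, which was lower, and the whole oocytes at 18 cycles were low.

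Zp1, whose product links the filaments (ENSMUSG00000024734), lies at chr19:10914287-10920632 on the minus strand. Its levels were 1076 and 884 CPM at 10 cycles, 1068 and 1250 at 14 cycles, but 486 and 376 at 18 cycles. They were 475 and 438 CPM in 1/2, 759.9 and 870 in 1/4, and 1026 and 718 in 1/8 of an oocyte. Whole oocytes at 18 cycles and the 1/2 fractions formed the low end and overlapped with each other, and no other library fell in their range.

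Astl, the gene of the cortical granule protease (ENSMUSG00000050468), lies at chr2:127338639-127357651 on the plus strand. It measured 962 and 666 CPM at 10 cycles, 946 and 1006 at 14 cycles, but 455 and 141 at 18 cycles. The fractions gave 207 and 287 CPM for 1/2, 723 and 590.4 for 1/4, and 752 and 460.0 for 1/8. Its 2 whole oocytes at 18 cycles lay further apart in fold than those of any other member, and both 1/2 fractions fell between them.

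Of the genes of the egg membrane, Cd9 (ENSMUSG00000030342) lies at chr6:125460266-125494791 and Izumo1r (ENSMUSG00000031933) at chr9:14885814-14903949, both on the minus strand. Cd9 measured 198 and 149.8 CPM at 10 cycles, 243 and 296 at 14 cycles, 29.5 and 20.5 at 18 cycles, 52.7 and 53.1 for 1/2, 109 and 151 for 1/4, and 203 and 158 for 1/8. Izumo1r measured 209.9 and 240.4 CPM at 10 cycles, 230.0 and 253 at 14 cycles, 77.9 and 60.4 at 18 cycles, 226 and 128 for 1/2, 172 and 265 for 1/4, and 357 and 197 for 1/8. For both genes the 2 whole oocytes at 18 cycles were the lowest of all 12 libraries. The 1/2 fractions were the next lowest for Cd9, whereas for Izumo1r one of them lay among the whole oocytes at 10 cycles.

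Oosp1, the gene of the secreted oocyte protein (ENSMUSG00000041857), lies at chr19:11667460-11691150 on the minus strand, on the same chromosome as Zp1. It measured 1446 and 1673 CPM at 10 cycles, 1596 and 1505 at 14 cycles, 165 and 301 at 18 cycles, 372 and 389.9 for 1/2, 307 and 394 for 1/4, and 1461 and 2177 for 1/8. Its 12 values fell into a high set, which held the whole oocytes at 10 and 14 cycles and the 1/8 fractions, and a low set with all others. In 1/4 of an oocyte Oosp1 stayed in the range of the 1/2 and the whole oocytes at 18 cycles or just above it.

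**Figure D1:**
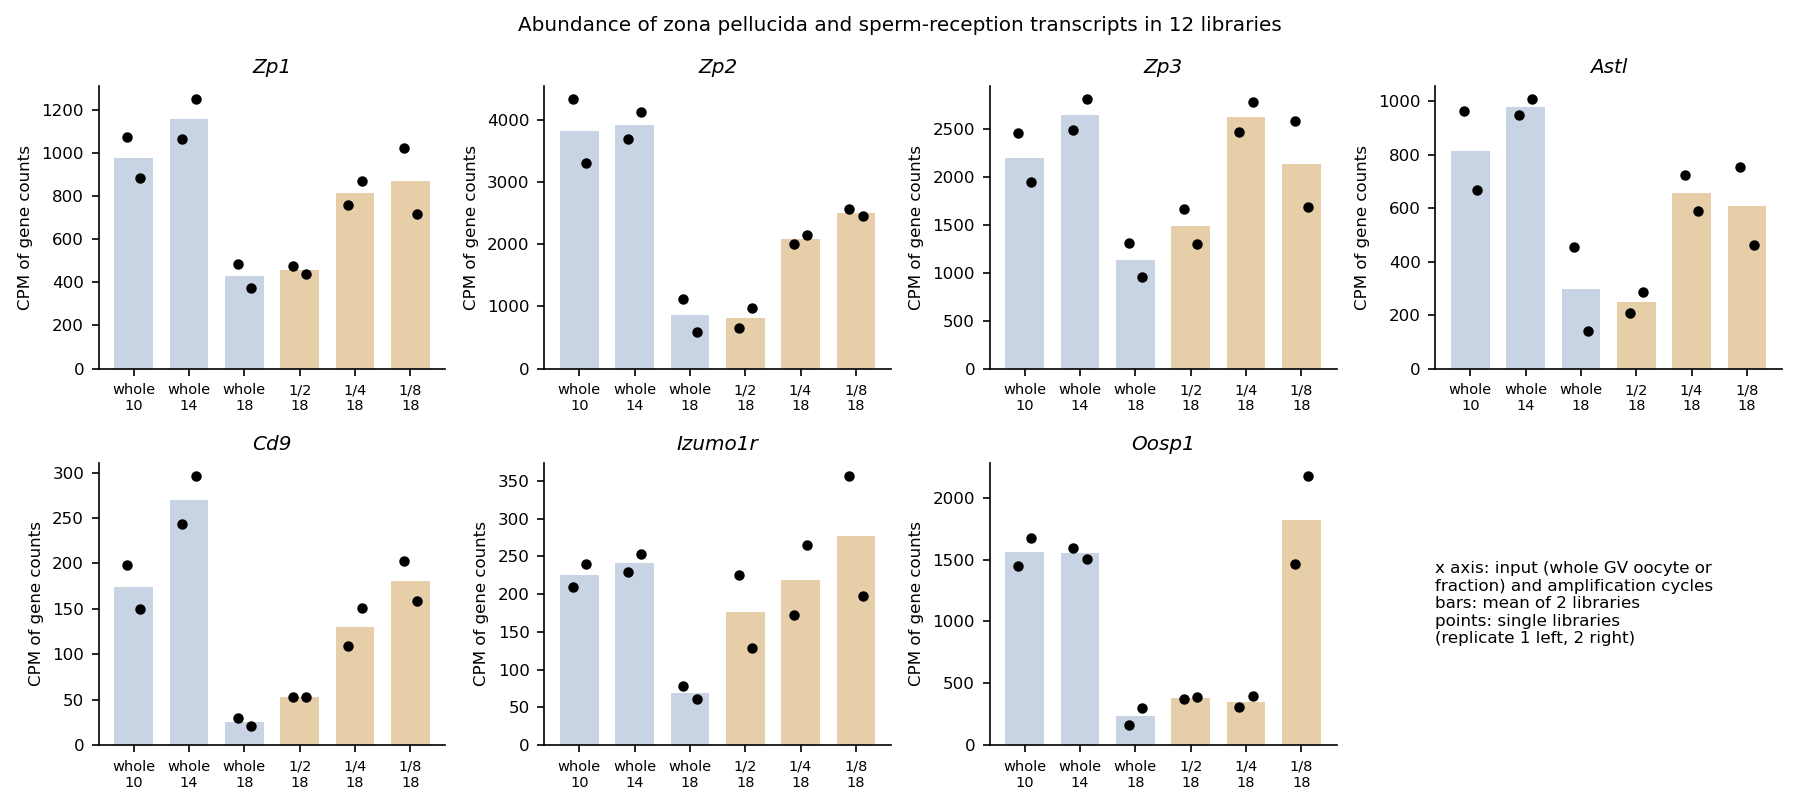
Level of each gene in CPM of gene counts, with the input and the number of amplification cycles on the x axis; bars are the mean of 2 libraries and points are the libraries. All 7 genes were low in whole oocytes at 18 cycles (Cd9 29.5 and 20.5 CPM) and high at 10 and 14 cycles, and Oosp1 was low in 1/4 of an oocyte (307 and 394 CPM) and high in 1/8 (1461 and 2177 CPM).

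The spread over the 12 libraries differed between the genes. The SD of log2 CPM was 1.30 for Oosp1, 1.23 for Cd9 and 1.02 for Zp2, against a median of 0.51 over the 8328 genes that had 10 counts or more in each library. That placed Oosp1 above 99.1%, Cd9 above 98.4% and Zp2 above 94.7% of those genes. Zp3, with an SD of 0.51, lay at the middle of the distribution, and Zp1 (0.59), Izumo1r (0.74) and Astl (0.91) came between. The highest library exceeded the lowest by 14.4-fold for Cd9 and 13.2-fold for Oosp1, and by 2.96-fold for Zp3.

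To compare levels between genes, CPM was divided by the length of the gene's exons in kb. In whole oocytes at 10 cycles this level per length was 1666 ± 273 CPM per kb for Zp3, 1605 ± 165 for Oosp1 and 1401 ± 265 for Zp2 (mean ± SD, n = 2 for each). These 3 neighbours in the order did not differ beyond their spread. Zp1 followed with 495 ± 68.4 and Astl with 318 ± 81.8 CPM per kb, and Izumo1r (97.0 ± 9.30) and Cd9 (85.2 ± 16.8) were lowest and overlapped. With the length of the longest transcript, their medians over the 12 libraries rose from 93.9 to 169 and from 73.6 to 122.

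In whole oocytes at 18 cycles Zp3 stood alone at the top, at 854 ± 191 CPM per kb (n = 2). Zp2 (313 ± 140), Oosp1 (239.5 ± 98.6), Zp1 (218 ± 39.5) and Astl (116 ± 86.8) followed, each within the spread of its neighbour. Oosp1 returned to the level of Zp3 in 1/8 of an oocyte, at 1871 ± 521 against 1617 ± 483 CPM per kb. Zp3 had the highest level per length of the 7 genes in 10 of 12 libraries and Oosp1 in the other 2, which were whole oocyte 10 cycles replicate 2 and 1/8 replicate 2. Cd9 was lowest in 9 libraries and Izumo1r in 3 (10 and 2 with the length of the longest transcript).

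Among all 55480 genes with an annotated length, Zp3 ranked between 8 and 42 by CPM per kb and Oosp1 between 7 and 308. The ranks of Zp2 ran from 13 to 230, those of Zp1 from 46 to 267 and those of Astl from 85 to 1146. Izumo1r ranked between 292 and 2319, and Cd9 between 286 and 4463. The zona genes and Oosp1 are thus among the most abundant transcripts of these GV oocytes, and the 2 genes of the egg membrane are of intermediate abundance.

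Zp2 did not keep 1 ratio to the other zona genes. Zp3 per Zp2, both per kb, was 1.17 and 1.21 at 10 cycles, 1.39 and 1.40 at 14 cycles, and 2.40 and 3.36 in whole oocytes at 18 cycles. In the fractions the ratio was 5.33 and 2.78 for 1/2, 2.54 and 2.67 for 1/4, and 2.08 and 1.42 for 1/8. All 8 libraries at 18 cycles had more Zp3 per Zp2 than all 4 libraries at 10 and 14 cycles. Zp1 per Zp2 was 0.342 and 0.368 at 10 cycles, 0.397 and 0.416 at 14 cycles, 0.596 and 0.885 in whole oocytes at 18 cycles, and 0.552 and 0.403 in 1/8. It too was lowest at 10 cycles, but 1/8 replicate 2 lay between the libraries at 14 cycles. Zp1 per Zp3 varied less, from 0.19 in 1/2 replicate 1 to 0.303 in whole oocyte 10 cycles replicate 2.

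Whole oocytes at 14 and at 10 cycles were compared first, to see whether 4 more cycles changed the composition of the library. Of the 7 genes, 0 passed the threshold (an adjusted p below 0.01 by edgeR's quasi-likelihood test with median ratio normalization), as did 0 of all 17532 genes tested (0%). At an unadjusted p below 0.05 there were 513 genes, 1 of them a member, and DESeq2 called 2 genes (0.0114%) and 0 members. That member was Cd9, higher by 0.60 ± 0.21 on the log2 scale (SE, n = 2 against 2, unadjusted p of edgeR = 0.0158). For the 7 genes the log2 fold changes ran from -0.05 to 0.60, with a median of 0.21 against 0.01 for all genes tested.

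At 18 cycles the sperm-reception genes took a smaller share of the library than at 10 cycles. Of the 7 genes, 5 were lower in whole oocytes at 18 cycles, and 10.8% of the 17532 genes tested were. Cd9 and Oosp1 fell the most, with log2 fold changes of -2.52 ± 0.24 and -2.46 ± 0.31 (± SE, n = 2 against 2; edgeR's quasi-likelihood test, p adjusted after Benjamini and Hochberg = 8.46e-05 and 0.00027). Zp2 (-1.91 ± 0.27), Izumo1r (-1.44 ± 0.21) and Zp1 (-0.92 ± 0.20) fell too (adjusted p of edgeR = 0.000427, 0.000474 and 0.00477), but all 3 lay above 0 with ERCC normalization. Both libraries at 18 cycles were below both at 10 cycles in each of these genes.

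Astl and Zp3 were also lower in both libraries but missed the threshold, with log2 fold changes of -1.21 ± 0.39 and -0.70 ± 0.20 (adjusted p of edgeR = 0.032 and 0.0207) that also turned positive on the ERCC scale. DESeq2 called all 7 genes lower, and 13.9% of the genes tested. The median of the 7 genes was -1.44, against -0.29 for all genes tested. Among the 1773 genes whose mean CPM was at least that of the least abundant member, 18.7% were lower and the median was 0.33. The log2 fold change correlated with the GC content of the transcript across 17513 genes (Spearman's rho 0.372, as a description, since genes are not independent). Oosp1 (42.0% GC), Zp2 (45.4%) and Cd9 (45.9%) had the lowest GC content of the 7 and fell by the most. Zp1, Zp3 and Izumo1r lay between 55.1% and 56.7% and Astl at 53.3%. The part of GC content and depth in these differences was not tested.

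The direction depended on the scale. Each of the 7 genes lay below the median of all genes with median ratio and with ERCC normalization, but ERCC normalization moved that median from -0.29 to 1.96. On the ERCC scale 2 of the 7 genes passed, Zp3 at 1.60 ± 0.43 and Zp1 at 1.36 ± 0.42, both higher at 18 than at 10 cycles, as were 47.6% of the genes tested, and Zp2 (0.45), Astl (1.24) and Izumo1r (0.81) were also above 0. Cd9 (-0.22) and Oosp1 (-0.37) were below 0 and did not pass. Zp1 with median ratio normalization missed the threshold on leaving out either library at 10 cycles, either at 14 cycles or replicate 2 at 18 cycles, with adjusted p of edgeR from 0.011 to 0.0426. Astl passed without replicate 1 at 18 cycles, the library in which it was higher (-2.17, adjusted p of edgeR = 0.000609).

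Against 14 cycles, 6 of the 7 genes were lower at 18 cycles, and 10.7% of the genes tested were. The libraries at 18 cycles are the same as in the comparison with 10 cycles, so this is no second observation. Cd9 and Oosp1 had log2 fold changes of -3.12 ± 0.24 and -2.42 ± 0.31 (adjusted p of edgeR = 5.56e-05 and 0.00029). Zp2, Izumo1r, Zp1 and Zp3 fell with median ratio normalization, at -1.92, -1.51, -1.13 and -0.94 (adjusted p of edgeR up to 0.0049), but lay above 0 with ERCC normalization. Astl missed the threshold at -1.45 ± 0.39 (adjusted p of edgeR = 0.0146) and turned to 0.99 on the ERCC scale. Without replicate 1 at 18 cycles its log2 fold change by median ratio was -2.39. DESeq2 called all 7 lower, and 13.7% of the genes tested. Zp3 missed the threshold without any 1 library other than replicate 1 at 18 cycles, and Zp1 without either library at 14 cycles (adjusted p of edgeR up to 0.0727 and 0.0322). On the ERCC scale, where the median of all genes was 1.97, only 1 of the 7 genes passed, Zp3, which was higher (1.36 ± 0.42), as were 47.9% of the genes tested.

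Fractions were compared with whole oocytes at 18 cycles by both scales, as the study did, to set the composition of the library beside the amount relative to the spike-in. By composition, 1/2 of an oocyte showed 0 of the 7 genes past the threshold of edgeR's test, and 0.122% of the 14788 genes tested passed. At an unadjusted p below 0.05 there were 1943 genes, 3 of them members, and DESeq2 called 151 genes (1.02%) and 0 members. Izumo1r and Cd9 had the highest log2 fold changes, 1.33 ± 0.34 and 1.03 ± 0.32 (adjusted p of edgeR = 0.0651 and 0.126), and both were higher in both 1/2 libraries than in both whole oocytes.

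In 1/4 of an oocyte, 1 of the 7 genes was higher by composition than in whole oocytes at 18 cycles, and 0.0338% of the genes tested were. This was Cd9, with a log2 fold change of 2.22 ± 0.32 (adjusted p of edgeR = 0.000736) that lay below 0 with ERCC normalization. It missed the threshold without whole oocyte 18 cycles replicate 2 or without 1/4 replicate 2 (adjusted p of edgeR = 0.0359 and 0.0182), and Astl passed without whole oocyte 18 cycles replicate 1 (0.00886). All 7 genes had a fold change above the median of all genes, 0.05, with a median of 1.08, and DESeq2 called 4 of them higher, and 0.467% of all genes.

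In 1/8 of an oocyte, 4 of the 7 genes were higher by composition than in whole oocytes at the same cycle number, and 7.06% of the genes tested were, whereas the same genes were lower with ERCC normalization. Oosp1 rose by 2.75 ± 0.33 and Cd9 by 2.65 ± 0.32 on the log2 scale (± SE, n = 2 against 2; adjusted p of edgeR's quasi-likelihood test = 1.12e-05 and 1.22e-05). Izumo1r rose by 1.81 ± 0.35 and Zp2 by 1.37 ± 0.30 (adjusted p of edgeR = 0.000613 and 0.00168). In these 4 genes both 1/8 libraries lay above both whole oocytes.

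Astl, Zp1 and Zp3 did not pass, with log2 fold changes of 0.85 ± 0.37, 0.82 ± 0.27 and 0.73 ± 0.28 (adjusted p of edgeR = 0.0915, 0.0281 and 0.0584). DESeq2 also called Zp1 (adjusted p of DESeq2 = 0.00625), and it called 2833 of the 14788 genes tested in either direction, 1581 of them lower. The median of the 7 genes was 1.37, against 0.03 for all genes tested, and 15.3% of the 1773 abundant genes were higher. Cd9 and Oosp1 passed under all 14 alternatives. Zp2 and Izumo1r missed the threshold without whole oocyte 18 cycles replicate 2 or without 1/8 replicate 1, with adjusted p of edgeR from 0.0102 to 0.0276, and Astl passed without whole oocyte 18 cycles replicate 1 (0.00361). Across genes the fold change correlated with GC content at rho -0.398 (14776 genes), the opposite sign to that between 18 and 10 cycles, and the 2 comparisons share the whole oocytes at 18 cycles.

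The 1/8 and the 1/2 fractions, which use none of the whole oocytes, differed by composition in 3 of the 7 genes, all higher in 1/8, and 2.08% of the genes tested were higher, whereas with ERCC normalization both 1/8 libraries lay below both 1/2 libraries in these 3 genes. These were Oosp1 (2.09 ± 0.32), Cd9 (1.61 ± 0.30) and Zp2 (1.48 ± 0.30 on the log2 scale; adjusted p of edgeR = 0.000423, 0.00139 and 0.00237). Without 1/2 replicate 1, Oosp1, Cd9 and Zp2 missed the threshold, at 2.10, 1.65 and 1.25. Without 1/8 replicate 1, Cd9 and Zp2 missed it, at 1.44 and 1.47. In both of these fits fewer of all genes passed as well. Cd9 also missed the threshold without 1/2 replicate 2 and Zp2 without 1/8 replicate 2 (adjusted p of edgeR = 0.017 and 0.0136). The other 4 genes had log2 fold changes from 0.36 (Zp3) to 1.14 (Astl). Both fractions came from the lysates of the same 2 oocytes, and the test took their libraries as independent because the pairing was not given.

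**Figure D2:**
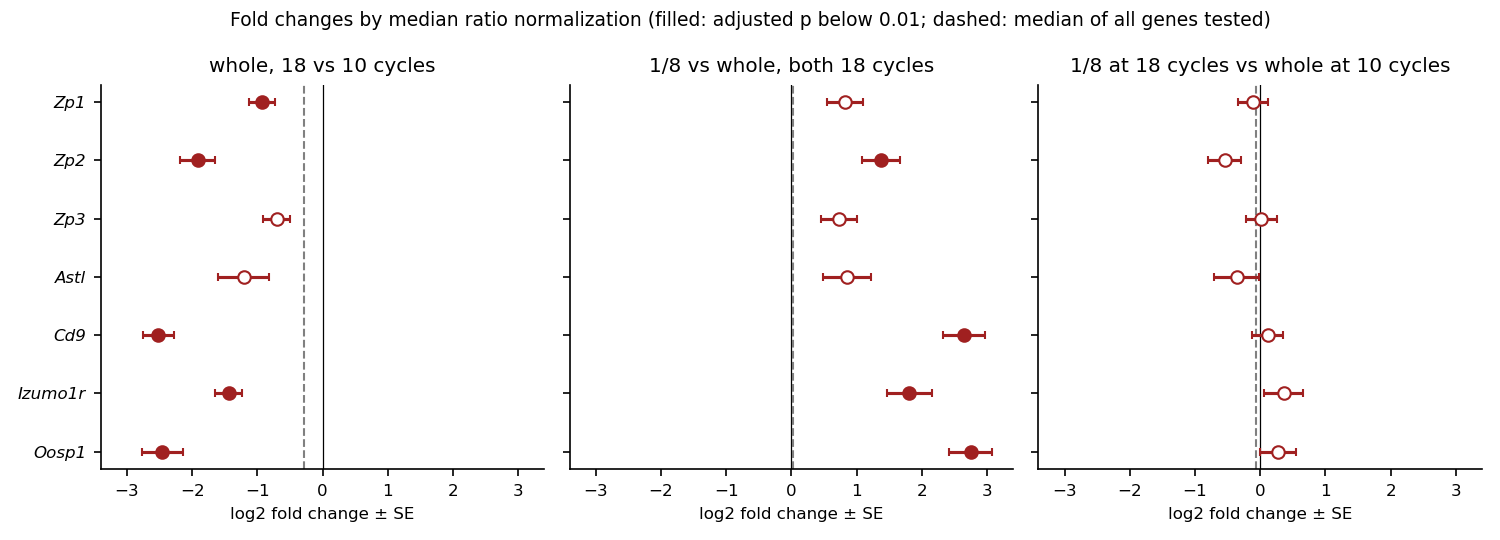
Log2 fold change of each gene with its SE by median ratio normalization, in whole oocytes at 18 against 10 cycles, in 1/8 against whole oocytes at 18 cycles, and in 1/8 against whole oocytes at 10 cycles (2 libraries a group; filled points passed an adjusted p below 0.01 of edgeR's test, and the dashed line is the median of all genes tested). Cd9 stood at -2.52, 2.65 and 0.12 and Oosp1 at -2.46, 2.75 and 0.28.

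Against whole oocytes at 10 cycles, 0 of the 7 genes differed by composition in 1/8 of an oocyte, although all 7 were lower there per ERCC count, and 0% of the 18041 genes tested passed the threshold in either direction. At an unadjusted p below 0.05 there were 2278 genes and 1 member, Zp2, and DESeq2 called 45 genes (0.249%) and 0 members. The log2 fold changes of the 7 genes ran from -0.55 ± 0.25 for Zp2 to 0.36 ± 0.29 for Izumo1r, with Zp3 at 0.02 ± 0.24 and Cd9 at 0.12 ± 0.24. A gene that missed the threshold is not thereby shown to be equal: for Zp2 both 1/8 libraries lay below both at 10 cycles.

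The same reference was then used for the larger fractions, a comparison chosen after the data were seen. In 1/2 of an oocyte 5 of the 7 genes were lower than in whole oocytes at 10 cycles, and 6.88% of the genes tested were. Zp2 and Oosp1 had log2 fold changes of -2.01 ± 0.26 and -1.80 ± 0.29 (adjusted p of edgeR = 1.35e-05 and 9.37e-05), and Astl, Cd9 and Zp1 were at -1.48, -1.48 and -0.86. Zp1 passed in only 8 of 17 alternatives, missing the threshold with TMM and without any 1 of the libraries at 10 or 14 cycles or of the 1/2 or 1/4 fractions (adjusted p of edgeR up to 0.0718). Astl missed it without replicate 1 at 10 cycles or without either 1/2 library (up to 0.0679). In 1/4 of an oocyte 1 of the 7 was lower, and 4.17% of the genes tested were. That gene was Oosp1, which fell by 2.04 ± 0.29 (adjusted p of edgeR = 5.3e-05), whereas Zp3 had a log2 fold change of 0.37 ± 0.24 and did not pass. With whole oocytes at 18 cycles as the reference and median ratio normalization no member was called lower in either fraction, so which members passed rested on which whole oocytes a fraction was set against.

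Relative to the spike-in, the libraries differed in all genes together. The gene counts per ERCC count were 323 and 360.0 at 10 cycles, 347 and 354 at 14 cycles, and 1873 and 1158 in whole oocytes at 18 cycles. The fractions stood at 439 and 344 for 1/2, 214 and 174 for 1/4, and 49.3 and 46.5 for 1/8 of an oocyte. Whole oocytes at 18 cycles, where only 1611 and 1474 ERCC counts were read, thus stood above the other whole oocytes by this measure. The fractions fell in the order of their input. Yet 1/2 replicate 2 lay in the range of the whole oocytes at 10 and 14 cycles, and 1/2 replicate 1 lay above it.

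Zp3 gave 796 and 701 counts per 1000 ERCC counts at 10 cycles, 865 and 994 at 14 cycles, 2449 and 1101 in whole oocytes at 18 cycles, 732 and 448 for 1/2, 528 and 484 for 1/4, and 128 and 78.5 for 1/8. Cd9 gave 64.2 and 53.9 at 10 cycles, 84.3 and 104.7 at 14 cycles, 55.2 and 23.7 at 18 cycles, 23.1 and 18.2 for 1/2, 23.3 and 26.2 for 1/4, and 10.0 and 7.35 for 1/8. Zp3 was thus highest in the whole oocytes at 18 cycles and Cd9 in those at 14 cycles. Oosp1 gave 309 and 348 in whole oocytes at 18 cycles, 163 and 134 for 1/2, 65.7 and 68.5 for 1/4, and 72.0 and 101 for 1/8, so that by total ERCC counts both 1/8 libraries stood above both 1/4 libraries. With the ERCC size factors of the tests these 2 groups overlapped (984.5 and 941 normalized counts for 1/4, 872 and 1187 for 1/8).

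**Figure D3:**
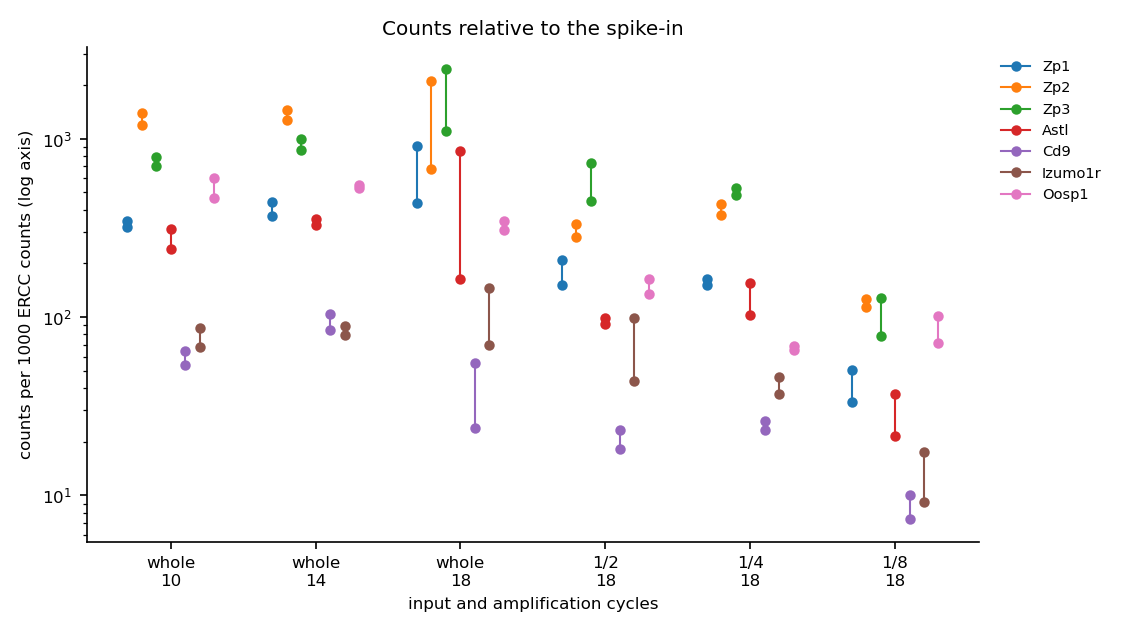
Counts of each gene per 1000 ERCC counts on a log axis, by input and amplification cycles; each point is 1 library and a line joins the 2 libraries of a group. Zp3 went from 2449 and 1101 in whole oocytes at 18 cycles to 128 and 78.5 in 1/8, whereas Oosp1 was at 65.7 and 68.5 in 1/4 and at 72.0 and 101 in 1/8.

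On the ERCC scale 4 of the 7 genes fell in 1/2 of an oocyte relative to whole oocytes at 18 cycles, and 52% of the genes tested did. In 1/4 of an oocyte 5 of the 7 were lower, and 69.7% of the genes tested were. In 1/8 all 7 were lower, and 87.5% of the genes tested were. The counts of the 7 genes were thus near those of all genes in each fraction. Of the 1773 abundant genes 88.2%, 99.4% and 100% were lower in 1/2, 1/4 and 1/8, more than of the 7 in the first and second of these. The medians of the 7 genes, -1.63, -1.70 and -3.69 on the log2 scale, stood beside -1.997, -2.69 and -4.92 for all genes tested. Each median of all genes lay further below 0 than the dilution itself would give, and this gap was not tested. These 3 comparisons share the 2 whole oocytes at 18 cycles, and the fractions share the 2 oocytes whose lysates were diluted. Without replicate 1 of these, Zp1, Zp2, Zp3 and Astl missed the threshold in both 1/2 and 1/4. They stood at -1.25, -1.12, -0.87 and -0.76 in 1/2, where the median of all genes moved to -1.39. In 1/4, where that median moved to -2.11, the log2 fold change of Astl moved from -1.85 to -0.17. Without 1/2 replicate 2, Zp1, Zp2 and Zp3 missed the threshold in 1/2, at -1.71, -2.315 and -1.30. Without 1/4 replicate 1, Zp2 and Zp3 missed it in 1/4, at -1.80 and -1.78. Without 1/4 replicate 2, Zp2, Zp3 and Astl did, at -1.54, -1.60 and -1.55. In each of these fits fewer of all genes passed as well.

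The size of the loss on the ERCC scale was not tested between genes, and the SEs of neighbours overlapped. In 1/8 of an oocyte Oosp1 and Cd9 had log2 fold changes of -2.10 ± 0.46 and -2.35 ± 0.53 (adjusted p of edgeR = 3.92e-05 and 5.64e-05), and Izumo1r one of -3.16 ± 0.53. The zona genes and Astl lay between -3.69 (Zp2) and -4.26 (Astl). In 1/2 of an oocyte the genes that missed the threshold were Cd9 (-0.99 ± 0.51), Izumo1r (-0.62 ± 0.49) and Oosp1 (-1.21 ± 0.45), and in 1/4 they were Cd9 (-0.57 ± 0.51) and Izumo1r (-1.28 ± 0.50), while Oosp1 stood at -2.20 ± 0.46.

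Genes with related functions were examined by 4 lists, to be read beside the genes tested, of which 10.8% were lower and 12.3% higher at 18 against 10 cycles, and 8.69% lower and 7.06% higher in 1/8 against whole oocytes. The values are by median ratio normalization, and on the ERCC scale every gene named here as higher in 1/8 was lower. Counts on the ERCC scale at 18 against 10 cycles are to be read beside 47.6% of the genes tested, which were higher there, with a median of 1.96. The first held 10 egg surface partners, among them tetraspanin and integrin genes and genes for attaching proteins to the membrane by a GPI anchor, as Juno is. Of 9 tested at 18 against 10 cycles 2 were lower and 0 higher, with a median log2 fold change of -0.69 against -0.29 for all genes. These were Cd55, a GPI-anchored complement regulator (-1.37 ± 0.21), and Piga, an enzyme of GPI anchor synthesis (-1.32 ± 0.28; adjusted p of edgeR = 0.000769 and 0.00443), both above 0 on the ERCC scale, where 4 of the 9 were higher, 0 lower and the median was 1.77. Of 8 tested in 1/8 against whole oocytes, Cd55 was higher (1.33 ± 0.30) and Igsf8, a partner of CD9, was lower (-2.51 ± 0.59). Itga6, an integrin subunit, was the most abundant of the list by its median, 269 CPM.

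The second list held 3 relatives of Oosp1, Oosp2, Oosp3 and Plac1. Oosp2 and Oosp3 were lower at 18 than at 10 cycles, with log2 fold changes of -2.26 ± 0.23 and -3.06 ± 0.44 (adjusted p of edgeR = 9.43e-05 and 0.00048), but neither passed on the ERCC scale (-0.04 ± 0.41 and -1.03 ± 0.43). Both were higher in 1/8 than in whole oocytes at 18 cycles, by 2.56 ± 0.32 and 2.43 ± 0.41 (adjusted p of edgeR = 1.32e-05 and 0.00019), but lower with ERCC normalization (-2.41 ± 0.49 and -2.38 ± 0.51). Oosp2, the most abundant of the 3 by its median over the 12 libraries, measured 506 and 576 CPM at 10 cycles, 96.5 and 91.4 in whole oocytes at 18 cycles, 134 and 210 in 1/4, and 492 and 786 in 1/8. Like Oosp1 it was low in 1/4 and high in 1/8, with no overlap. Plac1 reached at most 3.53 CPM and did not pass in either comparison.

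The third list held 13 genes of vesicle transport and fusion named for cortical granule exocytosis, the release of the compartment that stores ovastacin. Of 12 tested at 18 against 10 cycles 3 were higher and 2 lower, with a median of -0.35, near that of all genes. Napa, Rab3a and Rab11a were higher (2.25 ± 0.34, 2.20 ± 0.53 and 1.27 ± 0.20), and Nsf and Rab27a were lower (-1.86 ± 0.22 and -1.02 ± 0.22) but above 0 on the ERCC scale, where 6 of the 12 were higher, 0 lower and the median was 1.89. Napa encodes the adaptor that brings the ATPase NSF to SNARE complexes, and Rab3a, Rab11a and Rab27a encode GTPases of vesicle traffic. In 1/8 against whole oocytes Nsf was higher (1.40 ± 0.28) and Napa lower (-2.34 ± 0.38). Myo5b, a myosin motor, was the most abundant by its median, 474 CPM.

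The fourth list held 7 regulators of oocyte genes, among them Figla, whose protein activates the zona genes in growing oocytes. At 18 against 10 cycles 2 of 7 were higher and 1 lower, with a median of 0.72. Tcf3, a partner of FIGLA, and Lhx8, a homeobox gene, were higher (1.78 ± 0.22 and 1.33 ± 0.22), and Nobox, another homeobox gene and the most abundant of the list by its median over the 12 libraries, was lower (-1.32 ± 0.19) but above 0 on the ERCC scale, where 5 of the 7 were higher, 0 lower and the median was 3.06. In 1/8 against whole oocytes Nobox was higher (1.11 ± 0.28) and Tcf3 lower (-1.62 ± 0.38).

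Oocyte markers outside the 7 genes were examined as well, by median ratio normalization unless stated, and were not tested against the 7. Of the 9, 8 were lower and 1 was higher at 18 against 10 cycles, with a median of -1.44, but 7 of the 8 lay above 0 on the ERCC scale. In 1/8 against whole oocytes 7 were higher and 1 lower, with a median of 1.13, but with ERCC normalization all 9 were lower, with a median of -3.81. The exception in both was Zar1, a maternal factor of the early embryo, at 2.09 ± 0.20 and -1.68 ± 0.28 on the log2 scale. The sperm gene Zp3r had 47 and 36 counts at 10 cycles and 0 in both whole oocytes at 18 cycles, and 1 of 4 sperm genes tested passed, but 0 of 4 on the ERCC scale. Of the granulosa genes 2 of 9 were lower at 18 cycles and 1 of 7 was higher in 1/8, both turning on the ERCC scale, and of the blood genes the 1 tested did not pass.

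The pattern of each gene over the 12 libraries was compared with all others by the root mean square difference of log2(CPM + 1) after centring, over the same 8328 genes. The nearest gene to Zp3 was Tle6, of the subcortical maternal complex (0.126), where the median gene was at 0.63. For Zp2 the nearest were Patl2 and Padi6 (0.179 and 0.180), for Zp1 Zfp956 and Trim71 (0.130 and 0.143), and for Astl Nudt5 and again Patl2 (0.272 for Nudt5). Cd9 was nearest to Cnnm4 and Sycp2l (0.276 and 0.376), Izumo1r to Sebox and Timm17a (0.172 and 0.180), and Oosp1 to Omt2b and Plac8 (0.174 and 0.177).

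Among the 7 genes themselves, Zp2 was the 6th nearest of 8327 genes to Astl, the gene of the protease that cleaves its product, whereas Astl ranked 32 for Zp2, and Zp1 was the 9th nearest to Zp3, which ranked 40 for Zp1. Zp2 ranked 4398 in nearness to Zp3, its partner in the filaments, and Zp3 ranked 1393 for Zp2. Oosp1 ranked 7673 for Zp3 and 6458 for Zp1, which ranked 2927 and 1839 for Oosp1. The points share depth, input and cycle number within each library, so these ranks describe the 12 libraries and nothing further.

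Because FIGLA acts with TCF3 at E-boxes (CANNTG), the 300 bases from 250 before to 50 after the transcription start were searched for these letters, which read alike on both strands. RefSeq (GRCm38.p6) gave promoters for 5 of the 7 genes, Astl with 2 starts. Zp1 and Zp2 were not searched. CANNTG stood 4 times in the promoter of Zp3, 5 times in that of Oosp1, 3 times in that of Cd9, once in that of Izumo1r, and 0 and 3 times at the starts of Astl. Of all 32850 promoters 72.3% held at least 1, 17.6% at least 3, 6.49% at least 4 and 2.10% at least 5. The promoters of Zp3 (chr5:135979855-135980154, plus strand), the member with the least spread over the libraries, and Oosp1 (chr19:11691002-11691301, minus strand), the member with the most, are shown with CANNTG in capitals. A match is a run of letters and not a binding site.
Zp3: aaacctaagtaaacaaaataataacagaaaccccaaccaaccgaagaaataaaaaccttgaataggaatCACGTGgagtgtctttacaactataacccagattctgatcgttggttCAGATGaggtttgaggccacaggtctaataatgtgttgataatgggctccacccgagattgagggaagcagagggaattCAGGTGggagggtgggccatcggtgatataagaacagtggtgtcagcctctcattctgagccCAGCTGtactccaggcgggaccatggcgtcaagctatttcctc
Oosp1: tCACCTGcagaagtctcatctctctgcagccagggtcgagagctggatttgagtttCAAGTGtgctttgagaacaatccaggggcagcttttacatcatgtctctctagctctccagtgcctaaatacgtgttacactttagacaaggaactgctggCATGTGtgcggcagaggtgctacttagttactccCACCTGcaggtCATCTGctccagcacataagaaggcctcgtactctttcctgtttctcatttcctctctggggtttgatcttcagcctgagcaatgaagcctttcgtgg
In the promoter of Zp3 the nearest E-box before the start, CAGGTG, began 55 bases before it, and CACGTG began 181 bases before it. In Oosp1 CACCTG began 249 and 59 bases before the start.

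Cd9 overlaps 2 genes on the other strand. Gm26728 shares 218 bases of exon with it and had 8 to 394 counts, and Gm28809 shares 0 bases and had 0 to 1 counts. Whether counting used the strand was not settled, so it is not known whether reads in the shared bases counted for Cd9, for Gm26728 or for neither. No other member overlaps an annotated gene.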

How the data were processed

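Poly(A) RNA was measured in 12 libraries of GV oocytes, 2 in each of 6 groups. Per the methods, the authors used Cutadapt for trimming, STAR for mapping to GRCm38 with the ERCC sequences added, and HTSeq for counting. The submitters' processing notes give Cutadapt 2.5, STAR 2.7.2a and HTSeq 0.9.1. The deposited tables hold raw counts of genes and of ERCC molecules, without normalization. The methods name default counting, which uses the strand, but the library kit does not mark the strand, the deposited names carry a mark that may stand for counting without it, and only 6.90% to 10.8% of reads fell on no feature, so this was not settled. Those reads were left out of the totals.

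The members and the gene lists were chosen with earlier results of these data known. Tests were those of edgeR 4.0.16 (R 4.3.3), quasi-likelihood F tests, with p adjusted over all genes tested after Benjamini and Hochberg and a threshold of 0.01. Fold changes are on the log2 scale and levels in CPM. A gene was kept when 2 or more libraries of the fit had 5 or more counts. Size factors were median ratios over genes or over ERCC molecules. The cycle fit held 6 libraries and the fraction fit 8, and comparisons of fractions with whole oocytes at 10 cycles used all 12. Each SE was computed from the fold change and the F statistic. Replicates of each group differed by more than counting error (chi-square over its degrees of freedom, 10.0 to 16.7). The procedure was tested on simulated counts. Symbols, positions and lengths came from GENCODE M21, which lists 55480 of the 55573 genes. Intervals are Wilson intervals at 95%.

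Genes named besides the 7 members were 1 or 2 of the nearest in pattern, with a pseudocount of 1, and, from the lists, the most abundant gene and those called at 18 against 10 cycles or in 1/8 against whole oocytes, at most 3 per direction. The lists were egg surface partners, oocyte-secreted relatives, cortical granule exocytosis, zona gene regulators, and markers of oocytes, granulosa and cumulus, sperm and spermatids, and blood and immune cells. Alternatives were DESeq2 1.42.0, no filter, a filter of 10 counts in each library, the replicate number as a block, TMM, other ERCC size factors, 1 fit of all libraries, leaving out each library, and other lengths and totals. The reference of whole oocytes at 10 cycles for 1/2 and 1/4 was added after the data were seen.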

Additional observations from a re-analysis of the deposited data

How the results depend on the processing

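ERCC size factors changed the cycle comparisons most: 2 of the 7 genes passed at 18 against 10 cycles and 1 against 14 cycles, all higher, as were 47.6% and 47.9% of the genes tested. The log2 fold changes at 18 against 10 cycles then turned to 1.36 for Zp1, 0.45 for Zp2, 1.60 for Zp3 and 0.81 for Izumo1r, and against 14 cycles to 1.16, 0.45, 1.36 and 0.78 in the same order. The median of all genes moved up as well. For 1/2 against whole oocytes by median ratio, 1 of the 7 genes passed without a filter and was higher. Of all 24294 genes in that fit 218 passed, 120 of them lower. With whole oocytes at 10 cycles as the reference, an alternative chosen after seeing the data, 5 were lower, as were 6.88% of the genes tested. For 1/4, 4 were higher with DESeq2, as were 0.467% of the genes tested. Without a filter 3 were higher, and 205 of all 24294 genes passed, 159 of them lower. With that added reference 1 was lower, as were 4.17% of the genes tested. The cause was not tested.

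Leaving out each library in turn gave 4 to 6 genes at 18 against 10 cycles, 4 to 7 against 14 cycles, 0 to 2 in 1/4, 2 to 5 in 1/8 against whole oocytes and 0 to 3 in 1/8 against 1/2. With ERCC normalization the counts ran from 0 to 5 in 1/2 and from 1 to 6 in 1/4, and stayed at 7 in 1/8. They stayed at 0 for 14 against 10 cycles, for 1/2 against whole oocytes by median ratio and for 1/8 against whole oocytes at 10 cycles. A lone library is assumed here to vary like the other groups. Fewer samples enter each of these fits. Where the counts of members moved, the share of all genes that passed moved from fit to fit as well.

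With the replicate block, 6 members passed at 18 against 10 cycles, 7 against 14 cycles, 2 in 1/4, 4 in 1/8 and 3 in 1/8 against 1/2. With ERCC normalization 5, 6 and 7 passed in 1/2, 1/4 and 1/8. Of all 17532 genes tested, 2107 were then lower at 18 against 10 cycles and 2111 against 14 cycles. Of all 14788, 126 passed in either direction in 1/4, 2641 in 1/8 and 1141 in 1/8 against 1/2. Of these 105, 1476 and 729 were lower, whereas the members that passed there were higher. With ERCC normalization 8366, 10166 and 12684 of all 14788 were lower in 1/2, 1/4 and 1/8. The block gave 0 members for 14 against 10 cycles, 1/2 against whole oocytes by median ratio and 1/8 against whole oocytes at 10 cycles. Of all genes 0, 73 and 0 passed there. Neither labels nor methods say that the replicate numbers pair libraries, and the deviations of same-numbered libraries correlated between -0.15 and 0.17 over the 15 pairs of groups. Of 77 member fold changes, 5 gained and 0 lost a call with the block. The added comparisons of 1/2 and 1/4 with whole oocytes at 10 cycles were not among the 77.

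The level per length, as the median over 12 libraries, moved from 73.6 to 122 CPM per kb for Cd9 and from 93.9 to 169 for Izumo1r when the longest transcript replaced the exons of the gene. Depth limits Cd9 and Izumo1r in whole oocytes at 18 cycles most, where replicate 2 had 35 and 103 counts.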
